A study of Mus musculus with 8 samples.

Results

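Among the genes that separate beta cells from alpha cells of the mouse islet, 20 were found at close to the beta cell level in cells that descend from alpha cells and had switched on the insulin reporter. They were chosen from the deposited expression values in RPKM, which are reads scaled by gene length and library size. The lowest of the 3 beta libraries had to reach 5 RPKM and 4 times the highest of the 3 alpha libraries, which 187 genes met, and both transdifferentiated libraries then had to lie between 85% and 150% of the mean of the beta libraries. The 187 do not count Ins1, Ins2, Iapp, Pdx1, Gjd2 and Glp1r, which met the same limits for beta and alpha libraries but were left out beforehand. The 20 thus stand among 187 beta-enriched genes and among 26786 genes above 0 in at least 1 library. Because these values chose the genes, their levels in the 3 cell groups are described here without a test.

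The 8 libraries came from FACS-purified cells of adult mouse islets that had been dissociated after a night in culture. The mice carried Ins1-H2b-mCherry, a red nuclear reporter that follows the Ins1 promoter, and a Gcg-cre transgene that switches on a floxed YFP allele in cells with an active glucagon promoter. Transdifferentiated cells carried both colours (replicate 1 male, replicate 2 female), beta cells the red one (replicates 1 and 2 female, replicate 3 male) and alpha cells the yellow one (replicates 1 and 2 male, replicate 3 female). Per the labels, male and female islets were kept apart and each library drew on 10 to 12 animals, so a library is an average over many animals and over all cells that passed the gate. The design text also mentions pools of bitransgenic females without saying which libraries they gave. In such bulk samples a smaller number of cells expressing a gene and a lower RNA level per cell cannot be told apart. The titles of beta replicates 1 and 2, and of alpha replicates 1 and 2, share a number, and a letter b stands in the titles of replicates 2 and 3 of both beta and alpha cells but of neither transdifferentiated library. The meaning of that letter is not given. Male and female libraries of a group thus came from different animals. Nothing in the labels says that libraries of the same sex in a group are separate cultures or animals. P-values therefore measure only the spread between these samples, which may be technical between libraries of the same sex.

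Beta cells sense glucose by taking it up and oxidising it, and the rise in ATP closes potassium channels, opens calcium channels and releases insulin granules. Alpha cells secrete glucagon and share much of the secretory apparatus with beta cells, while a smaller set of transcription factors, transporters and receptors sets the types apart. A beta-enriched gene in a former alpha cell would therefore be expected to start low, but that starting level was not measured. What can be read gene by gene is the share of the beta level in the pooled cells.

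Depth limited that reading. The RPKM values rise in steps of single reads, and the reads counted back from these steps summed to 1244230 and 2167334 in the transdifferentiated libraries, against 14336670 to 21395315 in beta and 12911913 to 14094463 in alpha libraries. For a gene of 2 kb a single read added 0.402 and 0.231 RPKM in transdifferentiated libraries, against 0.0234 to 0.0349 RPKM in beta libraries. Ins1, Ins2, Iapp and Gcg together took 15.2% and 15.7% of the reads of transdifferentiated, 16.6% to 21.3% of beta and 25.7% to 29.6% of alpha libraries. Summed over 11 beta markers the RPKM was 140690 and 148317 in transdifferentiated, 187639 to 243789 in beta and 2530 to 3224 in alpha libraries, and summed over 12 alpha markers it was 20373 and 20258, 643 to 1992 and 176006 to 204429. Of the other marker sums, 12 macrophage genes stood at 52.2 and 38.8 RPKM in transdifferentiated, 122 to 146 in beta and 23.8 to 43.1 in alpha libraries, with Adgre1, Ptprc and C1qb at 0 in both transdifferentiated libraries. The sums of the same 3 groups were 3176 and 3068, 444 to 1010 and 1383 to 3213 RPKM for 7 delta markers, and 11439 and 8249, 590 to 1274 and 7961 to 13025 RPKM for 3 PP and epsilon markers. They were 11.8 and 5.39, 3.1 to 5.1 and 4.51 to 7.05 RPKM for 8 endothelial markers, and 2.91 and 1.09, 0.470 to 1.23 and 2.25 to 3.07 RPKM for 8 mesenchymal markers. For 8 acinar markers they were 785 and 275, 103 to 2998 and 36.7 to 2228 RPKM, and for 8 duct markers 431 and 487, 412 to 594 and 799 to 1873 RPKM. None of the 20 genes is on a marker list.

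Reaching the beta level was the less common outcome among beta-enriched genes. Of the 187, 20 (10.7%) lay inside the window in both transdifferentiated libraries, 120 (64.2%) were under 85% in both, 5 were over 150% in both and 42 were split between the libraries. Over all 6998 genes whose lowest beta library held at least 5 RPKM, 56.1% lay inside the window in both libraries and 11.4% were under it in both. Of these, 6805 were not beta-enriched, so their alpha level need not be low and a place inside the window need not mean a change from it. The beta-enriched genes were also chosen for high values in the beta libraries that form the denominator of the share. The median share of the beta mean over those 6998 genes was 100.2% in transdifferentiated replicate 1 and 99.98% in replicate 2, while the median over the beta-enriched genes was 61.6% in replicate 1 and 71.1% in replicate 2. The 20 genes had median shares of 106% and 104%, within limits that the window itself set.

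**Figure D1:**
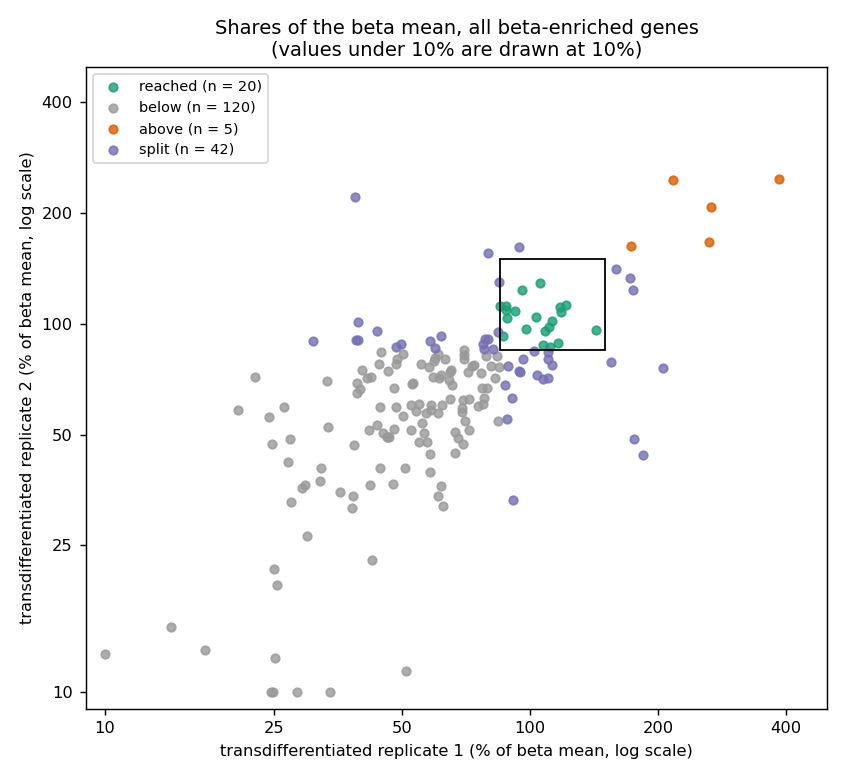
Each point is 1 of the 187 beta-enriched genes, placed by its share of the beta mean in transdifferentiated replicate 1 (x axis, %, log scale) and replicate 2 (y axis, %, log scale); the box is the 85% to 150% window. The 20 green genes fill the box, most of the other points lie below and left of it, and 5 genes lie above it in both libraries.

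The 2 transdifferentiated libraries were also set side by side, as a description: both belong to the rule, and both shares divide by the same beta mean, so they are not independent and an error in that mean moves them together. Of 36 beta-enriched genes inside the window in replicate 1, 20 (55.6%) were inside it in replicate 2, 15 were under it and 1 was over it, with a median share of 90.5%. Of the 151 genes outside the window in replicate 1, 20 (13.2%) were inside it in replicate 2. In the other direction, 20 of 40 genes (50%) chosen in replicate 2 were inside the window in replicate 1, against 16 of the remaining 147 (10.9%), and the median share was 87.7%. In both directions many of the chosen genes left the window in the other library, most of them downwards.

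The grouping by role that follows was made once the genes were known. The gene with the most reads was Bace2 (chromosome 16, 97356742 to 97442936), which encodes a membrane-bound aspartic protease that sheds proteins from the beta cell surface. It stood at 200.02 and 197.56 RPKM in transdifferentiated libraries, at 217, 187 and 209 RPKM in beta libraries, and at 7.63, 11.1 and 10.6 RPKM in alpha libraries. Both transdifferentiated values lay inside the range of the beta libraries, and all of these were far above the alpha libraries. Its shares of the beta mean were 97.9% (95% exact Poisson interval 91.7% to 104%, from 930 reads) and 96.7% (92.1% to 102%, from 1600 reads). Such intervals cover counting error only, and reads without molecular identifiers are not independent molecules. The other protease of the set, Enpep (chromosome 3, 129269175 to 129332720), encodes glutamyl aminopeptidase, which cleaves angiotensin II. Enpep stood at 19.98 and 23.43 RPKM in transdifferentiated libraries, 22.28, 23.69 and 18.95 RPKM in beta libraries, and 3.09, 3.18 and 3.84 RPKM in alpha libraries, so that here too both transdifferentiated values lay inside the beta range.

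**Figure D2:**
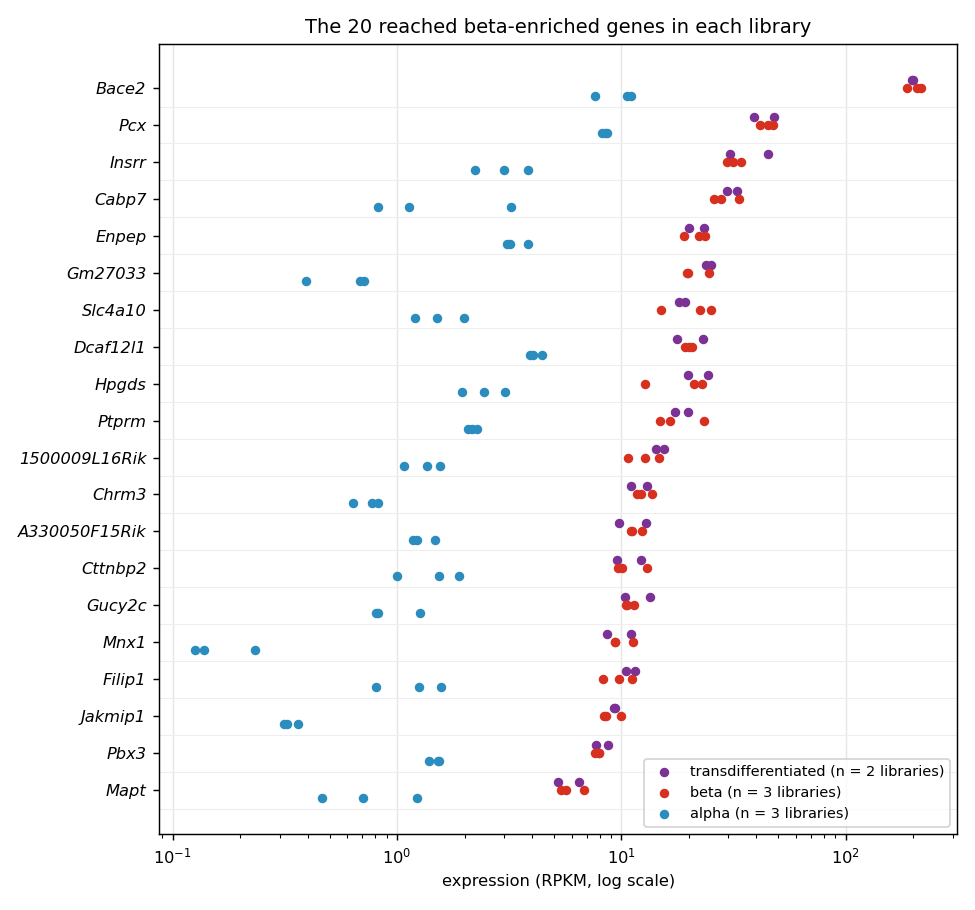
The expression of the 20 genes in each library is plotted on a log axis in RPKM, with transdifferentiated libraries in purple, beta libraries in red and alpha libraries in blue, 1 point a library and the genes ordered by beta mean. Purple and red points lie together for every gene, as the rule for choosing them required, from about 200 RPKM for Bace2 to about 6 RPKM for Mapt.

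Among the genes of metabolism, Pcx (chromosome 19, 4510472 to 4621752) encodes pyruvate carboxylase, which feeds pyruvate into the citrate cycle as oxaloacetate and is abundant in beta cells. Pcx held 48.0 and 39.1 RPKM in transdifferentiated libraries, 45.2, 41.4 and 47.5 RPKM in beta libraries, and 8.63, 8.23 and 8.45 RPKM in alpha libraries. Replicate 1 lay just above and replicate 2 just below the beta range, with shares of 107% (94.5% to 121%, 255 reads) and 87.4% (78.7% to 96.9%, 362 reads). Pcx overlaps Lrfn4 on the opposite strand (a mean of 21.02 RPKM in beta libraries), and the library kit named in the labels does not mark strand, so reads of the 2 genes could not be told apart where they overlap. Hpgds, which encodes hematopoietic prostaglandin D synthase, varied most among beta libraries. It stood at 19.9 and 24.4 RPKM in transdifferentiated libraries, 21.1, 22.8 and 12.7 RPKM in beta libraries, and 1.94, 3.04 and 2.44 RPKM in alpha libraries. A processed pseudogene, Gm17147, lies within Hpgds on the opposite strand (3.04 RPKM in beta libraries). Hpgds is also known from blood cells; the macrophage marker sum of transdifferentiated libraries was 52.2 and 38.8 RPKM against 122 to 146 RPKM in beta libraries, while Hpgds was at 105% and 129% of the beta mean, and the part of such cells in the Hpgds level was not tested.

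The receptors of the set recognise quite different signals. Chrm3 (chromosome 13, 9875486 to 10360847) encodes the M3 muscarinic receptor, through which acetylcholine potentiates insulin secretion. Chrm3 stood at 11.1 and 13.0 RPKM in transdifferentiated libraries, 12.2, 13.7 and 11.8 RPKM in beta libraries, and 0.636, 0.826 and 0.771 RPKM in alpha libraries. Replicate 2 was inside the beta range and replicate 1 below it, at 88.0% (67.5% to 113%, 62 reads). Insrr (chromosome 3, 87796951 to 87816101) encodes the insulin receptor-related receptor, a kinase that responds to alkaline pH. Insrr had 45.3 and 30.6 RPKM in transdifferentiated libraries, 29.7, 31.5 and 34.2 RPKM in beta libraries, and 2.99, 2.23 and 3.82 RPKM in alpha libraries. Its replicates differed most of the 20 genes: replicate 1, at 142% of the beta mean (127% to 159%, 322 reads), was above every beta library, and replicate 2, at 96.2% (86.8% to 106%, 379 reads), was among them. Gucy2c (chromosome 6, 136697284 to 136781765) encodes guanylate cyclase C, the receptor for guanylin and uroguanylin. It averaged 11.9 ± 2.16 RPKM in transdifferentiated (SD, n = 2), 10.8 ± 0.506 RPKM in beta (SD, n = 3) and 0.962 ± 0.259 RPKM in alpha cells (SD, n = 3), with shares of 95.5% and 124%. Ptprm encodes a receptor tyrosine phosphatase that binds its own kind on neighbouring cells. It was at 19.8 and 17.4 RPKM in transdifferentiated libraries, 23.3, 16.5 and 14.9 RPKM in beta libraries, and 2.16, 2.07 and 2.27 RPKM in alpha libraries, with both transdifferentiated values inside a wide beta range.

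Of ion transport and calcium handling, Slc4a10 encodes a sodium-dependent bicarbonate transporter and Cabp7 a calcium-binding protein of the calmodulin family. Slc4a10 was at 18.01 and 19.24 RPKM in transdifferentiated libraries, 25.05, 22.43 and 14.99 RPKM in beta libraries, and 1.21, 1.98 and 1.51 RPKM in alpha libraries. The beta libraries themselves ranged from 72.0% to 120% of their mean, so shares of 86.5% and 92.4% lay inside their spread. Cabp7 was at 32.7 and 29.7 RPKM in transdifferentiated libraries, 25.9, 27.8 and 33.5 RPKM in beta libraries, and 3.21, 0.822 and 1.13 RPKM in alpha libraries. It overlaps Zmat5 on the opposite strand (6.46 RPKM in beta libraries).

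Transcription factors were represented by Mnx1 and Pbx3, both of the homeobox class. Mnx1 (chromosome 5, 29473034 to 29478470) is needed for beta cells to form and to keep their identity in the mouse. It stood at 11.1 and 8.61 RPKM in transdifferentiated libraries, 9.34, 9.35 and 11.2 RPKM in beta libraries, and 0.138, 0.232 and 0.126 RPKM in alpha libraries. Its lowest beta library was 40.3 times its highest alpha library, where it had 7 reads, against a median ratio of 7.14 over the 20 genes. With 0.5 RPKM added to both values the ratio was 13.4 for Mnx1, 16.6 for Gm27033 and 16.2 for Bace2. In the transdifferentiated libraries Mnx1 had 31 and 42 reads, and shares of 111% (75.5% to 158%) and 86.4% (62.3% to 117%). Pbx3, which encodes a partner of HOX and other homeobox proteins, averaged 8.19 ± 0.692 RPKM in transdifferentiated (SD, n = 2), 7.84 ± 0.182 RPKM in beta (SD, n = 3) and 1.49 ± 0.0833 RPKM in alpha cells (SD, n = 3). Gm27033, annotated as a lincRNA, lies on the same strand as Pdx1 and starts 4872 bases beyond its end (chromosome 5, 147280720 to 147281263). It was at 25.1 and 23.7 RPKM in transdifferentiated libraries, 19.8, 19.7 and 24.6 RPKM in beta libraries, and 0.712, 0.685 and 0.391 RPKM in alpha libraries, resting on 17 and 28 reads in the transdifferentiated libraries. Pdx1 itself, which the rule left out, was at 86.7% and 82.6% of its beta mean, with the second value under the window. Of the 6 left-out genes, Gjd2 alone was inside the window in both transdifferentiated libraries, at 129% and 103%.

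Promoters (250 bases before to 50 bases after the start) were available in the RefSeq table of build GRCm38.p6 for 14 of the 20 genes; Bace2, Insrr, Gm27033, Gucy2c, Pbx3 and Mapt had no entry. Those of Mnx1 (chr5:29478421-29478720, minus strand), A330050F15Rik (listed as Akain1, chr17:69439076-69439375, plus strand) and Pcx (chr19:4510222-4510521, plus strand) are shown because Mnx1 and Pcx are on the function lists described below and A330050F15Rik shares a word with Mnx1. They are written 5′ to 3′ with the searched words in capitals: the homeobox core TAATTG or its reverse complement in Mnx1 and A330050F15Rik, and the palindromic E-box CACGTG in Pcx.
Mnx1: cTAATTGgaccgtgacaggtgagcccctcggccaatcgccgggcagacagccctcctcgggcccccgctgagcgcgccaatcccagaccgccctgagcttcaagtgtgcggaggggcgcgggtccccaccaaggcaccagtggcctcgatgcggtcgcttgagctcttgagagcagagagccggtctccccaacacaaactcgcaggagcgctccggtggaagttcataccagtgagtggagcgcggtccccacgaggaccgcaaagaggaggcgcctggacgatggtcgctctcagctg
A330050F15Rik: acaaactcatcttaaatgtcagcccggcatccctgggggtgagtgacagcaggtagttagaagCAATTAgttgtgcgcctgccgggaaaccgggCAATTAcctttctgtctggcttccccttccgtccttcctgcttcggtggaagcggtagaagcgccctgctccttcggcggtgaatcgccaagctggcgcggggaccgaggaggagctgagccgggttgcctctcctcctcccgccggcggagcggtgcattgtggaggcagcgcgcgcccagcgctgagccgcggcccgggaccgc
Pcx: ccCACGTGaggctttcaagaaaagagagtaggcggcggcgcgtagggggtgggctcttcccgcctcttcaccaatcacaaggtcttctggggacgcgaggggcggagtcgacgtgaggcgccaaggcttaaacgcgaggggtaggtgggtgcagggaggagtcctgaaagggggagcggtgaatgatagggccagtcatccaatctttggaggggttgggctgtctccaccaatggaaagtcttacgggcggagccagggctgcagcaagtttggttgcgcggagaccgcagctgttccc
Each of 8 words was sought on both strands. TAATTG was in 2 of 14 promoters (14.3%), against 5.15% of 97 promoters of genes under the window and 8.14% of 27025 promoters in all. The E-box CACGTG was in the Pcx promoter alone, or 7.14%, against 7.24% of all promoters. Likewise the CREB core TGACGT was in that of Ptprm alone (7.59% of all promoters), the RFX core GTTGCCA in that of Enpep alone (4.47% of all), and the NeuroD E-box CAGATG in that of Jakmip1 alone (17.3% of all). TATAAA was in 2, Enpep and Slc4a10, or 14.3%, against 14.2% of all. TGCTGAC, a large Maf core, and TGATGCA, of the C/EBP-ATF element, were in 0 of 14, with 4.57% and 3.21% in all promoters. Median GC content was 59.5% in the 14 promoters, 62.0% in those of genes under the window and 52.7% in all. With 14 promoters a single one is worth 7.14%, and a match is not a binding site.

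Proteins of the cytoskeleton and its partners formed a further part of the set. Mapt encodes the microtubule protein tau, Jakmip1 a protein that links a Janus kinase to microtubules, Cttnbp2 a partner of cortactin, and Filip1 a partner of filamin A. Jakmip1 (chromosome 5, 37028335 to 37150607) was at 9.25 and 9.38 RPKM in transdifferentiated libraries, 9.97, 8.40 and 8.57 RPKM in beta libraries, and 0.324, 0.312 and 0.361 RPKM in alpha libraries, with shares of 103% and 104%. Its values, like those of Bace2, Cabp7, Enpep, Slc4a10 and Ptprm, lay inside the beta range in both libraries. Mapt averaged 5.86 ± 0.894 RPKM in transdifferentiated (SD, n = 2), 5.96 ± 0.773 RPKM in beta (SD, n = 3) and 0.799 ± 0.390 RPKM in alpha cells (SD, n = 3). Cttnbp2 averaged 10.9 ± 1.89, 10.9 ± 1.81 and 1.47 ± 0.444 RPKM in the same order of groups, and Filip1 11.0 ± 0.730, 9.75 ± 1.44 and 1.21 ± 0.382 RPKM. The 3 remaining genes are less well described. Dcaf12l1, which encodes a WD repeat protein, had shares of 116% and 88.5%, 1500009L16Rik had 122% and 112%, and A330050F15Rik, an older name of Akain1, an inhibitor of A-kinase anchoring, had 85.1% and 112%.

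The counting intervals show how closely the shares were known. The 20 genes rested on 17 to 930 reads in replicate 1 and 28 to 1600 reads in replicate 2. In 16 genes the interval held 100% in both libraries and in 4 (Pcx, Insrr, Hpgds and Gucy2c) in 1 library. Only for Bace2, Cabp7, Hpgds and Filip1 did the whole interval lie inside the window in both libraries, and for the other 16 genes it crossed an edge of the window in at least 1 library. Of the 40 transdifferentiated values, 22 lay inside the range of the 3 beta libraries, 10 above and 8 below it, and no gene had both values above or both below. At the lower end of the window the nearest genes inside were A330050F15Rik (85.1% in its lower library), Mnx1 (86.4%) and Slc4a10 (86.5%), and the nearest outside were Ocln (84.4%), Wipi1 (84.3%) and Chst11 (84.2%). At the upper end the nearest inside were Insrr (142%) and Hpgds (129%), and the nearest outside Pigr (159%), Ggt7 (162%) and Tmem132b (171%).

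**Figure D3:**
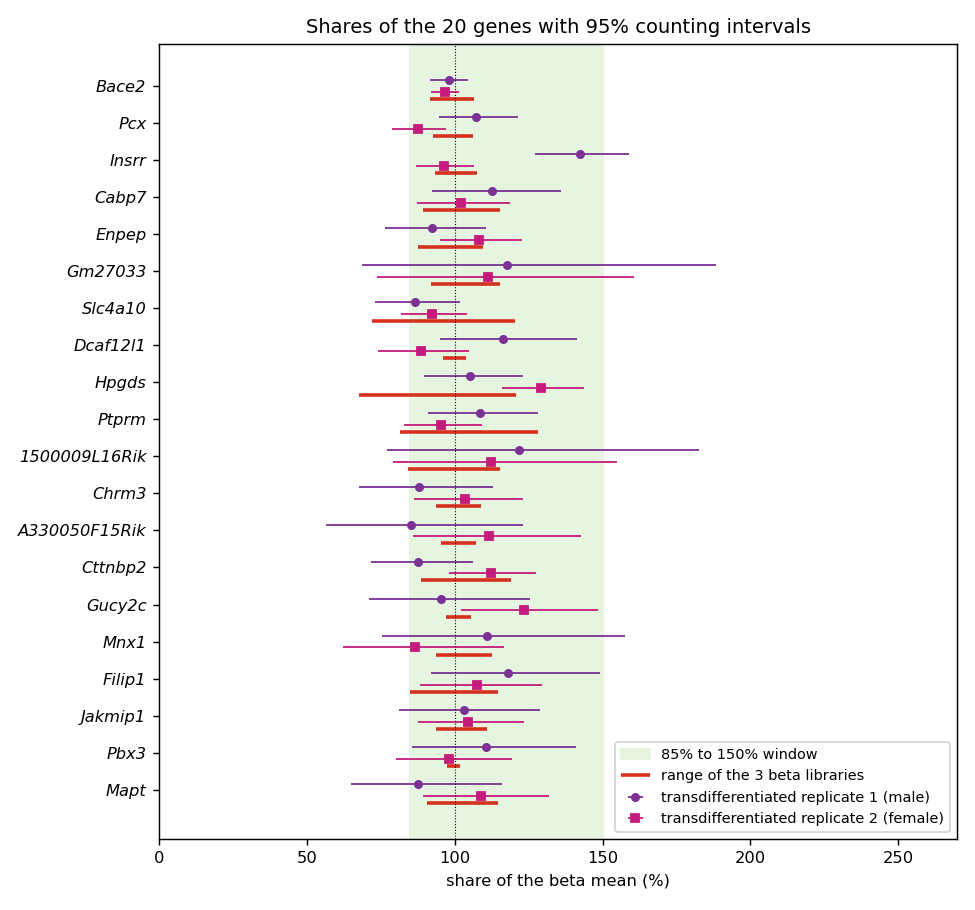
Shares of the beta mean (x axis, %) are drawn for the 20 genes in transdifferentiated replicate 1 (circles) and replicate 2 (squares) with 95% exact Poisson intervals, above red bars that span the 3 beta libraries; the green band is the 85% to 150% window. Both intervals of Bace2, Cabp7, Hpgds and Filip1 stay inside the band, and at least 1 interval of each other gene crosses an edge of it.

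None of the lists of islet functions held more than a single reached gene, but most reached genes were on no list, including receptor, transcription factor and cytoskeleton genes described above. Of 19 lists of islet functions, 15 held at least 1 of the 187 beta-enriched genes, 4 held a reached one, and 0 held more than 1. Together the lists held 45 beta-enriched genes, of which 3 were reached (Pcx, Chrm3 and Mnx1), 33 were under the window in both libraries, 1 was over it and 8 were split. Over all 187 beta-enriched genes, 20 (10.7%) were reached and 120 (64.2%) were under the window. The 15 lists held 1 to 12 such genes each, so at most 1 reached gene on a list says little about that function. Only for mitochondrial carbon metabolism was every beta-enriched gene reached, and that list held a single one, Pcx. The other 17 reached genes were on no list.

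The lists of glucose uptake, granule content, exocytosis and channels held few beta-enriched genes, and all of these but Mlxipl were under the window, where 64.2% of all beta-enriched genes lay. Of 3 beta-enriched genes of glucose uptake and glycolysis, Slc2a2, the glucose transporter gene, was at 62.3% and 31.9% and G6pc2, an islet glucose-6-phosphatase gene, at 41.8% and 51.4%, while Mlxipl, which encodes the glucose-responsive factor ChREBP, stood above the window at 385% and 248%. Both genes of the list of granule content and prohormone processing were under the window. These were the prohormone convertase gene Pcsk1 at 56.3% and 50.6% and the oxidase gene Ero1lb, also on the endoplasmic reticulum list, at 46.0% and 49.4%. Both genes of exocytosis were under it too, Sytl4 (38.5% and 46.7%) and Rims3 (71.9% and 51.5%). Both genes of the list of ion channels and excitability were also under it, Trpm5 at 61.9% and 60.1% and Kcnip1 at 69.7% and 84.9%. Taken over every list gene at 5 RPKM or more in all beta libraries, the median share was 80.9% for 20 genes of glucose uptake and 104% for 23 of granule content. It was 98.2% for 29 genes of exocytosis and 108% for 17 of ion channels and excitability. For granule content, exocytosis and ion channels the low shares thus describe the few beta-enriched genes and not the lists as a whole. The median of the glucose uptake list, 80.9%, was itself under the lower end of the window, 85%. Of 12 maturity genes 11 were under the window, among them Ucn3 (69.2% and 57.8%), Mafa (32.1% and 37.5%) and Cox6a2 (27.3% and 32.8%), and Pcx was the reached one. Cox6a2 was also the single beta-enriched gene of the respiratory chain list.

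Receptors and transcription factors were mixed. The receptor list does not hold Insrr, Gucy2c or Ptprm, and the transcription factor list does not hold Pbx3, so these reached genes are not in the counts that follow. Of 10 beta-enriched genes on the receptor list Chrm3 was reached, Galr1 was split (110% and 80.4%) and 8 were under the window, including Ffar1 (64.8% and 74.2%), Prlr (56.9% and 57.3%) and P2ry1 (42.5% and 22.8%). Of 4 beta-enriched genes on the transcription factor list Mnx1 was reached, Nkx6-1 (69.9% and 80.1%) and Mafa were under the window and Mlxipl was over it. The integrated stress response list had 10 beta-enriched genes, 6 under the window and 4 split, with Psat1 (39.4% and 101%) and Eif4ebp1 (38.9% and 90.4%) far apart between replicates. All 3 genes of endoplasmic reticulum folding (Ero1lb, Edem1 and Wfs1), both of amine and GABA handling (Gad1 and Th) and both secreted factors (Ucn3 and Ccl5) were under the window. Of 2 adhesion genes Robo1 was under it and Ocln split, and of 3 antioxidant and metal genes Mt2 was under it and Hmox1 and Mt1 split. The lists for cyclic AMP and calcium signalling, translocation and early secretion, lipid synthesis, and imprinted and developmental regulators held 0 beta-enriched genes. Over list genes at 5 RPKM or more in every beta library, beta-enriched or not, the median mean share was 96.6%, 87.0%, 83.5% and 91.7% in these 4 lists.

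**Figure D4:**
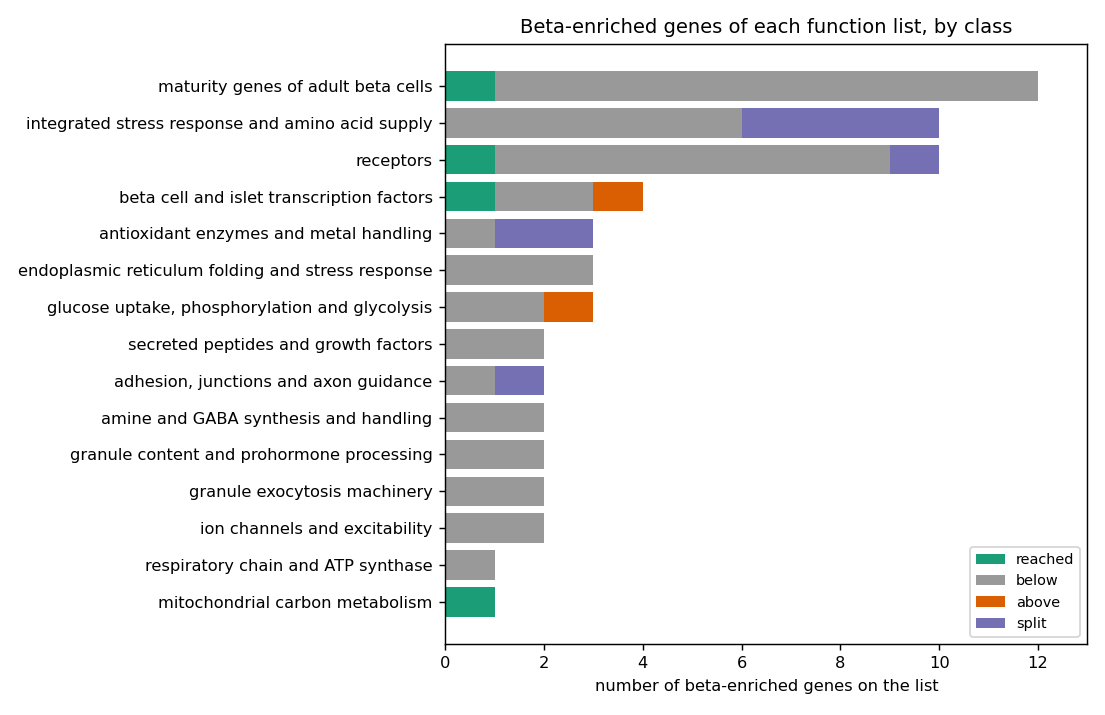
Bars give the number of beta-enriched genes on each of the 15 function lists that held any (x axis), split into genes reached in both transdifferentiated libraries, under the window in both, over it in both, and split between libraries; a gene can be on 2 lists. Green is at most 1 gene in every bar.

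The profile of the 20 in beta and alpha cells was close to that of the 42 split genes and differed more from that of the genes under the window. Their median beta mean was 15.5 RPKM, against 17.9 RPKM in the split genes and 20.7 RPKM in the 120 genes under the window, and their alpha mean was a median of 10.9% of the beta mean, against 9.24% in the split genes and 4.96% in those under the window. The median ratio of the lowest beta to the highest alpha library was 7.14, against 6.69 in the split genes and 13.2 in those under the window. Only Bace2, Pcx, Insrr, Cabp7, Enpep, Gm27033 and Slc4a10 had a beta mean of 20 RPKM or more, while the highest gene under the window, the metallothionein gene Mt2, averaged 2374 RPKM in beta cells. These values are part of the contrasts that chose the genes and are given without a test.

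The rule limited how far male and female libraries of the 20 genes could differ: it held the male and the female transdifferentiated library to the same window, and it used the other 6 libraries too. Their sex values are therefore a description, and a low count of calls does not show equal levels. How many pools of islets each sex gave is not stated, so sex could not be told apart from pool. With 4 male and 4 female libraries in a limma fit with cell group as a term, 6 of 13172 genes (0.0456%) were called at an adjusted p under 0.05, and 5 of these were higher in male and 1 in female libraries. Among the 20, limma and limma voom on recovered reads called 0, with 3 and 2 of the 20 at an unadjusted p under 0.05. Over all genes, limma counted 683 of 13172 (5.19%) and limma voom 641 of 13172 at that threshold. Enpep, which had the lowest unadjusted p of the 20 in limma, was at 19.98, 18.95, 3.09 and 3.18 RPKM in male libraries. In female libraries it was at 23.43, 22.28, 23.69 and 3.84 RPKM, and it was lower in the male library or libraries of each of the 3 cell groups. Gm27033 and 1500009L16Rik, also at an unadjusted p under 0.05 in limma, went the other way, with male minus female log2 differences of 0.290 and 0.260. The limma adjusted p of all 3 genes was 0.843. In limma voom Gm27033 and 1500009L16Rik missed that threshold, at an unadjusted p of 0.0562 and 0.0631, and the 2 genes under it were Enpep and Hpgds. Without beta replicate 3, the only male beta library, limma called 2 genes in all. It then counted 0 of the 20 at an unadjusted p under 0.05, against 508 of all 13099 genes tested.

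How many genes counted as reached depended on the scale. With median-ratio scaling, which divides the transdifferentiated libraries by 1.14 and 1.10 and the beta libraries by 0.975 to 1.02, 12 genes were reached, 10 of them among the 20, and Pcx, Chrm3 and Mnx1 were not. Bace2 stayed just inside the window, at 85.2% and 87.4%. The factors of this scaling came from genes above 0 in all 8 libraries, of which the transdifferentiated ones were the shallowest. As deposited, the median share over the 6998 genes at 5 RPKM or more in every beta library was 100.2% and 99.98%. Which scale suits these libraries better was not tested. With quantile normalization 15 were reached, 12 of them among the 20; Chrm3 and Mnx1 were each under 85% in 1 library, whereas Pcx stayed inside the window (113% and 90.4%) and no longer met the ratio to alpha cells. Bace2, Cabp7, Gm27033, 1500009L16Rik, Filip1, Jakmip1 and Pbx3 counted as reached in all 16 alternatives of scaling, centre or left-out library, while Slc4a10 and A330050F15Rik did so in 9 of them. Some of the 16 could not remove a gene. Leaving out a transdifferentiated or alpha library only loosens the rule, and scaling by recovered reads gave back the deposited scale. None of the 20 was lost in these settings, so they say nothing about how stable a gene was. Read in a single library, 40 genes were reached without transdifferentiated replicate 1 and 36 without replicate 2. Against beta replicate 1 alone, the only beta library without the letter b, 26 genes were reached, 17 of them among the 20, and Insrr, Slc4a10 and Ptprm were not. Against beta libraries of the same sex, 16 of the 20 stayed: Hpgds was at 156% in the male library, whose only male beta partner was the low one, and Slc4a10 was at 120% in the male and 81.1% in the female library.

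**Figure D5:**
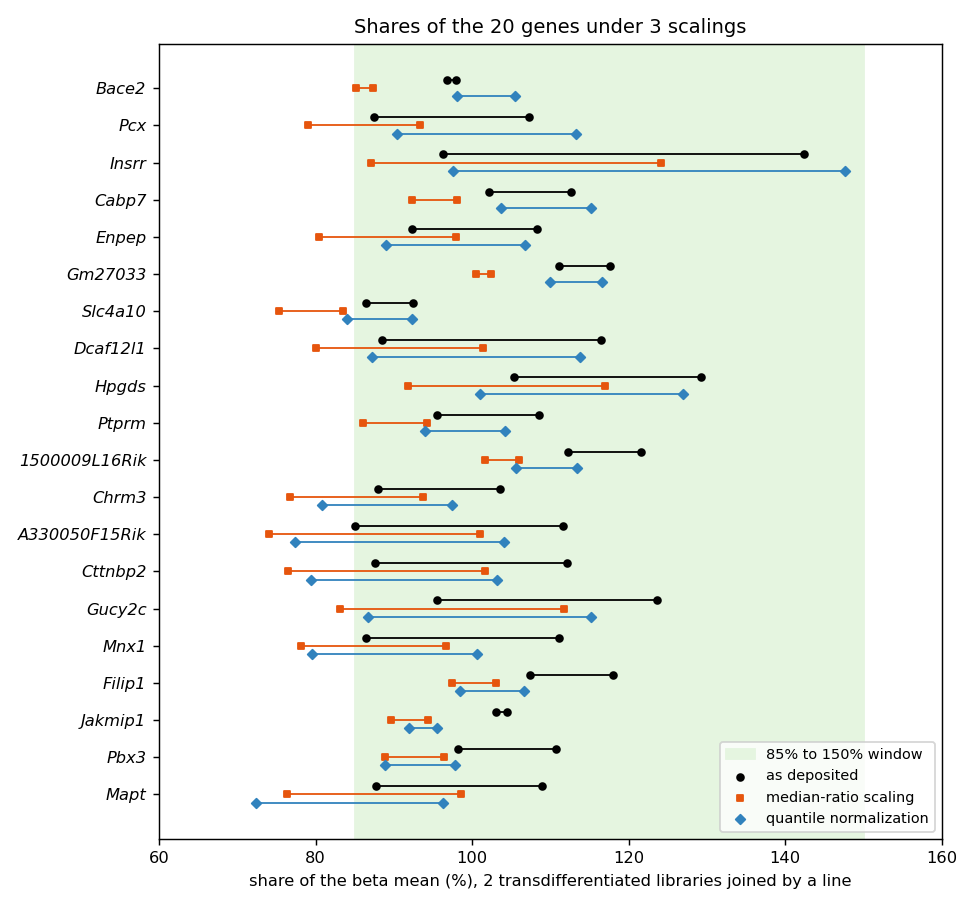
Shares of the beta mean (x axis, %) of the 20 genes in both transdifferentiated libraries, joined by a line, are shown for the values as deposited (black), after median-ratio scaling (orange) and after quantile normalization (blue); the green band is the window. Median-ratio values lie to the left of the deposited ones for every gene, and for 10 genes at least 1 library then falls under 85%.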

How the data were processed

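The authors deposited 1 table of RPKM per gene and library. The submitters' processing notes name STAR 2.5, featureCounts, edgeR 3.14.0 and build GRCm38.p4; annotation and strand setting: not given in the sources used here. Of 46959 entries, 4 with repeated names were left out. With exon lengths from GENCODE M21, 78.5% of 25349 matched genes gave whole reads in every library, to a tolerance of 0.01 read, and the lengths of 6879 others were solved from their own steps. Within groups, recovered reads of 2 libraries differed by a chi-square per degree of freedom of 3.3 to 32.2, beyond counting noise, so no pair was taken as 1 library deposited again; whether libraries that share a title number came from 1 pool of islets cannot be told from this, and their average is an alternative. Sex was tested with limma 3.58.1 in R 4.3.3 (trend) on log2(RPKM + 0.5), with Benjamini-Hochberg adjustment. Genes of at least 1 RPKM in at least 2 libraries entered the fit. The same fit was run on simulated data with independent libraries, which could not show how libraries from a shared pool would affect it. Promoters came from the RefSeq table, 1 a gene, taking the outermost start for which it held a promoter. For A330050F15Rik and Jakmip1 this lay downstream of the annotated gene start (chromosome 17, 69437911, and chromosome 5, 37028335).

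The genes and lists were chosen with earlier results of these data known. The rule for named genes took every gene on a function list, the 15 highest by beta mean, the 5 nearest each end of the window on either side, the 10 with the largest ratio of beta to alpha, and genes called by sex. Of 7 promoters that held a searched word, 3 are printed, a choice made after the matches were seen. Alternatives covered the window, ratio, floor, scaling, beta centre and left-out libraries.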

Additional observations from a re-analysis of the deposited data

How the results depend on the processing

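The count of 20 reached genes became 11 with a window of 90% to 140%, 31 and 7 with an alpha ratio of 3 and 8, 4 with a beta floor of 20 RPKM and 44 with none, 12 with median-ratio scaling, and 4 where the counting interval had to lie inside the window. Leaving out 1 library gave 20 to 40. Reached genes on the function lists, 3 in the main count, became 0 with median-ratio scaling, 0 with quantile normalization and 1 with library sizes without 4 hormone genes, and 2 to 9 with 1 library left out; these alternatives for the lists were chosen after seeing the data, and the cause was not tested. The share of genes chosen in replicate 1 that were inside the window in replicate 2 was 55.3% to 61.1% with 1 beta or alpha library left out, and 43.1% to 55.0% in the other direction, where a floor of 20 RPKM gave 26.7%. The 6 genes called by sex became 1 among genes of at least 10 RPKM on average, 2 with libraries of the same title number averaged, and 2 to 6 with 1 library left out. The titles give no replicate number shared between groups, so no paired analysis was made. Their numbers run from 8 to 10 in male and from 12 to 14 in female libraries, and a p code in them differs by cell group. Whether libraries of the same sex came from 1 pool of islets divided over the 3 gates is not given. Sex, which the groups do share, was a term of the fit; a further term for the letter b gave 5 called genes. The shallow transdifferentiated libraries limit the shares of low genes.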
